A study of Mus musculus with 18 samples.

Results

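The 53 genes described here encode the machinery that copies the genome in S phase and the regulators that switch that machinery on. They were taken by symbol from the deposited table of 22019 genes, each symbol was found on 1 row, and all 53 passed the filter on low values that 16021 genes passed. The rule used the symbol alone and set no threshold on the values. The list itself was chosen with earlier results of these data known. Messenger RNA was sequenced in 18 libraries of NIH 3T3 Tet-ON cells, a mouse fibroblast line, and the question put to these genes was whether their levels depended on the LINC complex, on the rigidity under the cells or on myosin activity. The LINC complex joins the nuclear lamina to the cytoskeleton through SUN and KASH domain proteins.

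All cells carried a retroviral doxycycline-inducible construct in stably selected populations, and all cells received 1 μg/ml doxycycline for 48 hr on fibronectin-coated polyacrylamide gels. SUN1L cells expressed SS-HA-Sun1L-KDEL, the lumenal part of SUN1 held in the endoplasmic reticulum, which displaces KASH proteins from the nuclear envelope. KDEL cells expressed SS-GFP-KDEL as the control, and unlike the SUN1L cells they had been enriched for GFP by sorting. Libraries are named here by their serial numbers and always listed in ascending order within a group. KDEL cells on the soft gel of 1 kPa gave libraries 4, 16 and 28, and SUN1L cells on 1 kPa gave libraries 3, 15 and 27. KDEL cells on the stiff gel of 308 kPa gave libraries 8, 20 and 32, and SUN1L cells on 308 kPa gave libraries 7, 19 and 31. KDEL cells on 308 kPa with 25 μM Y27632 (Y27), which lowers myosin activity, gave libraries 12, 24 and 36. KDEL cells on 308 kPa with 10 μM blebbistatin, an inhibitor of non-muscle myosin II, gave libraries 10 and 22. The last library, number 34, was grown on 308 kPa and is called the empty vector library, because its labels name an empty vector and contradict each other on the inhibitor. It entered no main comparison. The study's methods call the samples of a condition biological replicates, and the labels do not add how they were separated.

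DNA replication begins in G1, when the origin recognition complex, CDC6 and CDT1 load the MCM helicase onto origins. Helicase activators, primase, polymerases, the sliding clamp and enzymes of nucleotide synthesis then act together through S phase. E2F transcription factors, released from the retinoblastoma protein when cells commit to division, drive many of these genes, so that their messages are abundant in cycling fibroblasts and scarce in resting ones. In a bulk library, fewer cells in S phase and less of these messages per cell cannot be told apart.

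The promoters of the members are shown first because the letters of E2F sites were common in them. RefSeq windows from 250 bases before to 50 bases after the start site, on GRCm38.p6, were matched by symbol for 43 of the 53 members. Both strands were searched for TTTGGCGC, TTTCCCGC, TTTGCCGC and TTTCGCGC. At least 1 of these words was present in 17 of the 43 members (39.5%), in 481 of 11738 matched tested genes (4.1%), and in 2.6% of all genes with a window. The 17 members were Uhrf1, Cdc6, Lig1, Mcm3, Mcm5, E2f2, Mcm6, Orc1, Dnmt1, Pold1, Cdt1, Pola1, Rfc3, Pole2, Mcm7, Gins3 and Pold3. A word was held by 4 of 5 matched MCM helicase genes and by none of the 6 nucleotide supply genes. In the sequences below, given 5′ to 3′ on the strand of the gene, the capitals mark the E2F words.
Mcm5, chr8:75109332-75109391, plus strand: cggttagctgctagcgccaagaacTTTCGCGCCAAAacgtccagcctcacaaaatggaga
Mcm6, chr1:128359721-128359839, minus strand: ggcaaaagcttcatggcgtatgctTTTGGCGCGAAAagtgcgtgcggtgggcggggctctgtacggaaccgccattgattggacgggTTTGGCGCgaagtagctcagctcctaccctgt
Cdc6, chr11:98907989-98908044, plus strand: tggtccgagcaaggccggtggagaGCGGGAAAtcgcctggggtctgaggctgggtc
Gins3, chr8:95633494-95633549, plus strand: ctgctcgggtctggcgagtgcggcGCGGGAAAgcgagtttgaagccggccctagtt
Orc1, chr4:108579403-108579453, plus strand: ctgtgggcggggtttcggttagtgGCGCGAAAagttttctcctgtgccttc
Uhrf1, chr17:56304104-56304159, plus strand: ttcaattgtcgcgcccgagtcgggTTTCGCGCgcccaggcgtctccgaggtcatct
Pola1, chrX:93632262-93632317, minus strand: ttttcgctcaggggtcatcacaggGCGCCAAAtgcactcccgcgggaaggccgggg
Dnmt1, chr9:20952811-20952866, minus strand: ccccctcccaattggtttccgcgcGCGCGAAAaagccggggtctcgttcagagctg
In Mcm5 and in the distal site of Mcm6, TTTCGCGC on one strand overlaps TTTGGCGC on the other, and Mcm6 has a further word whose first base lies 47 bases before the start site. Cdc6 and Gins3 carry the same word, TTTCCCGC on the minus strand, and are set beside each other because their signals differed widely among the libraries, as described below. A match is a description of letters and not a bound site.

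The main feature of these genes was a difference between libraries, not between groups. In library 3 (SUN1L on 1 kPa), library 7 (SUN1L on 308 kPa) and library 8 (KDEL on 308 kPa), 52 of the 53 members were lower than in each of the other 15 libraries (98.1%), a pattern that 12.9% of all tested genes shared. Dut was the exception. Set against the mean of the other 2 libraries of the same group, on the log2(signal + 1) scale, the median member was 3.5-fold lower in library 3, 3.56-fold lower in library 7 and 3.4-fold lower in library 8. At least 2-fold lower were 46 members in library 3, 49 in library 7 and 46 in library 8, against 7.86%, 8.46% and 9.63% of all tested genes. The median of all tested genes stayed near 0, at −0.02, −0.01 and −0.003 on the log2 scale. Libraries 3, 7 and 8 were noticed in these values, so that the counts describe them and are not a test.

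**Figure D1:**
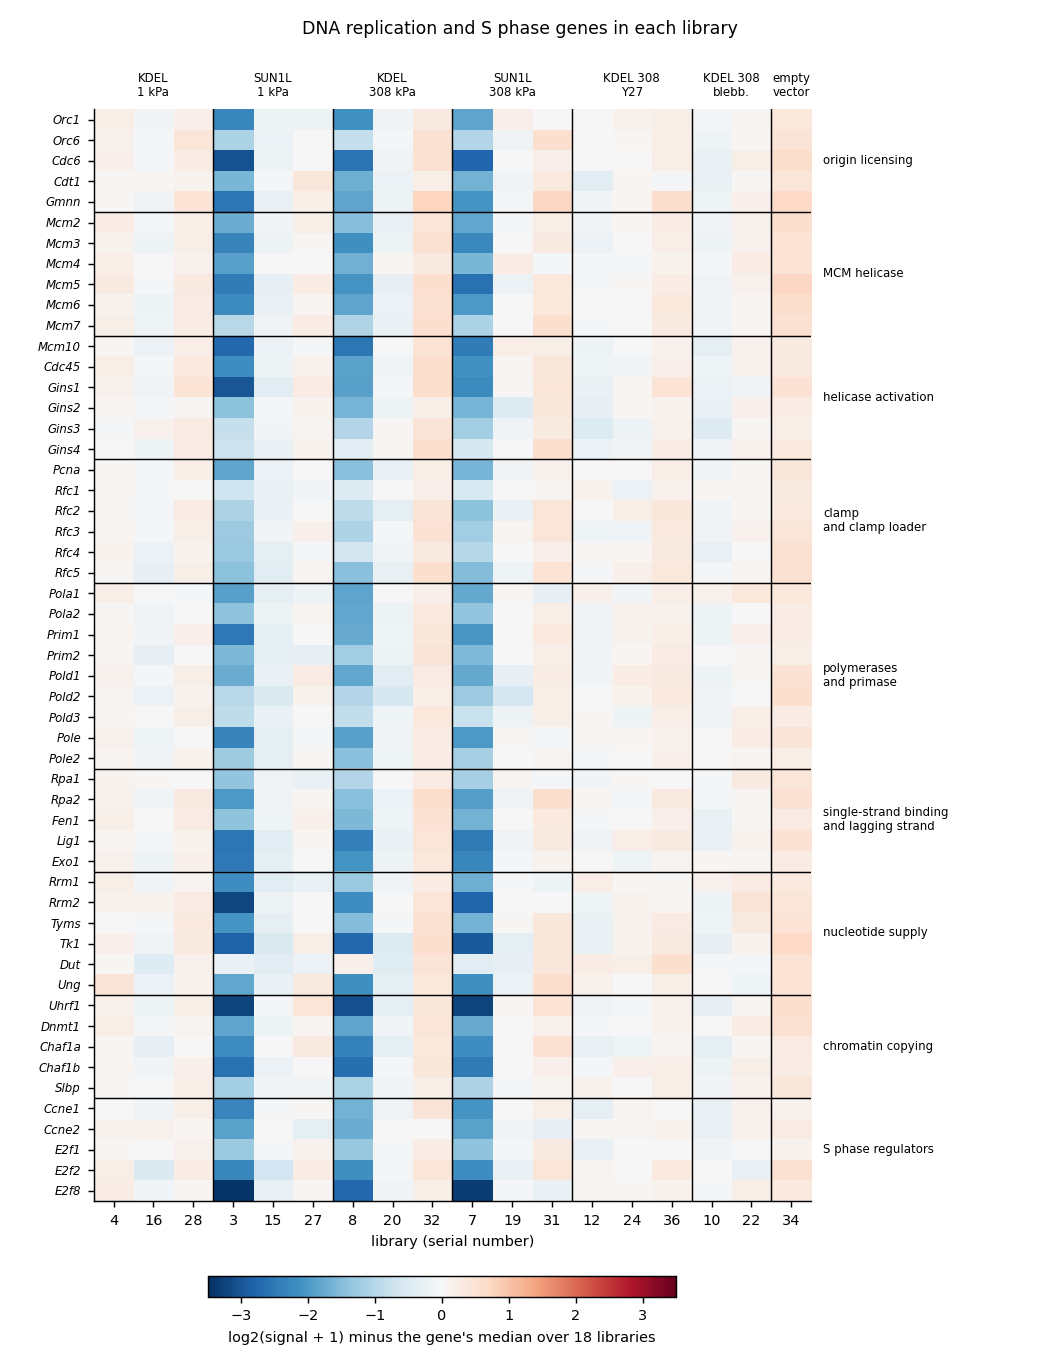
Each row is 1 of the 53 members, ordered by role, and each column 1 of the 18 libraries, ordered by group; the colour is log2(signal + 1) minus the gene's median over the 18 libraries, from blue (lower) to red (higher). Libraries 3, 8 and 7 form blue columns across all roles, the row of Dut excepted, while the other 15 libraries differ little.

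Deviations of this size were absent from the other groups. In KDEL cells on 1 kPa the median member deviated by 0.07, −0.25 and 0.19 on the log2 scale in libraries 4, 16 and 28. No member reached 2-fold below its group mates there, against 3.76%, 2.22% and 2.1% of all tested genes. The same held with Y27, against 4.4%, 1.8% and 2.7% in libraries 12, 24 and 36. It also held with blebbistatin, against 3.57% and 3.31% in libraries 10 and 22. With shares this small, the absence of such members does not set them apart. Over all 18 libraries the signal of a member spanned between 2.01-fold and 14.1-fold, with a median of 5.2-fold, and over the 15 libraries other than 3, 7 and 8 it spanned between 1.43-fold and 2.32-fold, with a median of 1.72-fold. The 3 low libraries share the lowest run of serial numbers, 3 to 12, with libraries 4, 10 and 12, in which no member was 2-fold lower. Their signal summed over all genes to 29583296, 29831788 and 30837199, the 3 lowest sums of the 18 libraries, against 32164284 to 34880352 in the others. Read pairs, estimated from the spacing of the lowest values, were 12670000, 16450000 and 14260000 in libraries 3, 7 and 8 and between 12940000 and 19460000 elsewhere. The part of these differences in the levels of the members was not tested.

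Sun1 and the fibroblast markers went with the labels of the SUN1L construct and the cell type, and the other constructs were not checked. Sun1 had a signal of 38450 to 82620 in the 6 SUN1L libraries and of 2785 to 3799 in the other 12. All 10 fibroblast markers had a median signal over 100, and their sum was 591300 to 709200 in libraries 3, 7 and 8 and 582500 to 929500 in the others. Of 16 markers of other lineages, 3 had a median over 100 (Cdh1, Cd68 and Des). The summed signal of each other lineage was small in every library. In libraries 3, 7 and 8 against the others it was 63.6 to 104 against 109 to 314 for the 3 leukocyte markers, 34.03 to 42.09 against 50.49 to 286 for the 3 endothelial markers, and 10.07 to 16.03 against 3 to 7.81 for the 3 neural markers. It overlapped for the 4 epithelial markers, 206 to 314 against 97.9 to 297, and for the 3 muscle markers, 284 to 325 against 183 to 467. The part of these markers in the results was not tested.

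Licensing genes prepare origins in G1, and all 5 members of this role were at least 2-fold lower in each of libraries 3, 7 and 8. Orc1, the largest subunit of the origin recognition complex, had a normalized signal of 1564, 1241 and 1500.4 in KDEL and 274, 1183 and 1167 in SUN1L cells on 1 kPa. On 308 kPa the signal of Orc1 was 306, 1231 and 1659.9 in KDEL and 369, 1507 and 1353 in SUN1L cells, 1305, 1475 and 1527 with Y27, 1262 and 1432 with blebbistatin and 1727 in the empty vector library. The first library of 3 groups stood low, and the other SUN1L and KDEL libraries overlapped on 308 kPa. On 1 kPa the SUN1L libraries of Orc1 all lay below the KDEL libraries.

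Cdc6, the ATPase that joins the origin complex to recruit the helicase, showed one of the widest ranges. Its signal on 1 kPa was 1790.4, 1517 and 1909 in KDEL and 192, 1412 and 1579 in SUN1L cells. On 308 kPa Cdc6 had 263, 1457 and 2307 in KDEL, 232, 1593 and 1790.1 in SUN1L, 1564, 1614 and 1863 with Y27, 1362 and 1832 with blebbistatin and 2434 in the empty vector library. Relative to its group mates Cdc6 was 7.73-fold, 7.25-fold and 6.96-fold lower in libraries 3, 7 and 8. Cdt1, the partner that delivers the helicase, had 3187, 3219 and 3335 in KDEL and 1018, 2978 and 4031 in SUN1L cells on 1 kPa. For Cdt1 on 308 kPa the values were 935, 2682 and 3534 in KDEL, 983, 2821 and 3909 in SUN1L, 2394, 3235 and 3012 with Y27, 2595 and 3162 with blebbistatin and 4117 with the empty vector. The drop in libraries 3, 7 and 8 was thus much the same for Cdt1, 3.4-fold, 3.38-fold and 3.29-fold, and smaller than for Cdc6.

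Gmnn encodes geminin, which binds CDT1 and blocks a further round of licensing, yet it was low in the same libraries as the factors it restrains. On 1 kPa Gmnn had 1126, 1010.1 and 1533 in KDEL and 189, 923 and 1277 in SUN1L cells, and on 308 kPa 306, 975 and 1853 in KDEL and 264, 1084 and 1837 in SUN1L cells. With Y27 it had 1038, 1155 and 1647, with blebbistatin 1003 and 1252, and in the empty vector library 1784. Orc6, another origin complex subunit, was 2.02-fold, 2.37-fold and 2.1-fold lower in libraries 3, 7 and 8, the smallest drop of the role.

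The MCM helicase unwinds DNA at the fork as a ring of 6 related subunits, all 6 of which are members. Mcm2 had 7842, 6356 and 7583 in KDEL and 1952, 6051 and 7532 in SUN1L cells on 1 kPa. On 308 kPa Mcm2 had 2304, 5480.4 and 8732 in KDEL and 1855, 6241 and 7566 in SUN1L cells, 6046, 6654 and 7735 with Y27, 6044 and 7251 with blebbistatin and 9842 in the empty vector library. Its low values in libraries 3, 7 and 8 were 3.46-fold, 3.7-fold and 3-fold below the group mates. Mcm5 varied more, with 5214, 4018 and 5225 in KDEL and 762, 3445 and 4996 in SUN1L cells on 1 kPa. For Mcm5 on 308 kPa the KDEL libraries had 994, 3423 and 6318, the SUN1L libraries 684, 3665 and 5385, the Y27 libraries 4070.3, 4314 and 4997, the blebbistatin libraries 3874 and 4643 and the empty vector library 6979. Thus Mcm5 was 5.44-fold, 6.49-fold and 4.68-fold lower in libraries 3, 7 and 8, although it belongs to the same ring as Mcm7, which was 2.07-fold, 2.63-fold and 2.36-fold lower. The spread within the ring was thus wide, and Mcm3 stood near Mcm5 while Mcm4 and Mcm6 stood between: Mcm3 was 4.83-fold, 5.3-fold and 4.96-fold lower, Mcm6 4.36-fold, 4.6-fold and 4.01-fold and Mcm4 3.7-fold, 3.26-fold and 3.61-fold.

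**Figure D2:**
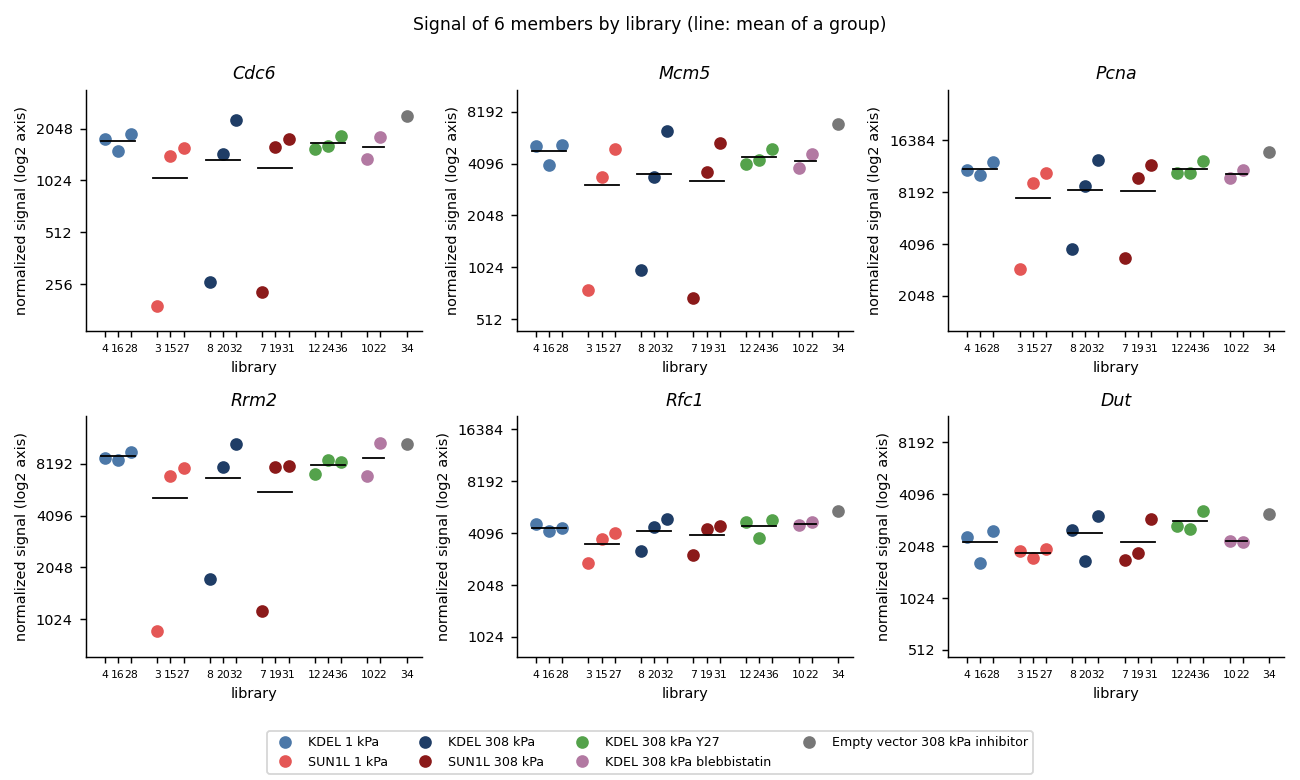
The normalized signal (log2 axis spanning the same fold range in every panel) of Cdc6, Mcm5, Pcna, Rrm2, Rfc1 and Dut is plotted for each library by group, with a line at the mean of each group of 2 or 3. Libraries 3, 8 and 7 sit far below their group mates for Cdc6, Mcm5, Pcna and Rrm2, slightly below for Rfc1, and among the others for Dut.

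Helicase activation needs CDC45, the GINS complex and MCM10, and this role held members that differed much and members that differed little between libraries. Mcm10 had 1413, 1154 and 1588 in KDEL and 199, 1153 and 1298 in SUN1L cells on 1 kPa, and on 308 kPa 230.0, 1327 and 1853 in KDEL and 247, 1588 and 1551 in SUN1L cells. With Y27 its signal was 1184, 1353 and 1497, with blebbistatin 1076 and 1497, and in the empty vector library 1679. Mcm10 was 6.11-fold, 6.33-fold and 6.79-fold lower in libraries 3, 7 and 8. Cdc45 had 1957, 1641 and 2157 in KDEL and 379, 1508 and 1913 in SUN1L cells on 1 kPa, and 465, 1581 and 2591 in KDEL and 391, 1779 and 2253 in SUN1L cells on 308 kPa. Under the inhibitors Cdc45 had 1530.3, 1602 and 1945 with Y27 and 1546 and 1911 with blebbistatin, and 2128 in the empty vector library. Outside libraries 3, 7 and 8, no library of Cdc45 lay below 1508.

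The 4 GINS genes encode one complex, but their libraries differed unequally. Gins1 had 647, 541 and 813 in KDEL and 73.0, 444 and 708 in SUN1L cells on 1 kPa, 156, 564 and 896 and 125, 605 and 778 on 308 kPa, 501, 614 and 808 with Y27, 509 and 542 with blebbistatin and 833 with the empty vector. It was 7.59-fold, 5.47-fold and 4.54-fold lower in libraries 3, 7 and 8. Gins2 had 1428, 1314 and 1472 in KDEL and 508, 1315 and 1484 in SUN1L cells on 1 kPa, 441, 1218 and 1587 and 443, 995 and 1793 on 308 kPa, 1123, 1447 and 1494 with Y27, 1171 and 1540.1 with blebbistatin and 1636 with the empty vector. Gins2 was therefore 2.75-fold, 3.01-fold and 3.15-fold lower. Gins3, whose promoter word equals that of Cdc6, had 388, 439 and 485 in KDEL and 227, 374 and 429 in SUN1L cells on 1 kPa. On 308 kPa Gins3 had 195, 411 and 551 in KDEL, 175, 369 and 498 in SUN1L, 286, 355 and 439 with Y27, 293 and 412 with blebbistatin and 463 in the empty vector library. Against 7.73-fold, 7.25-fold and 6.96-fold for Cdc6, Gins3 was 1.76-fold, 2.45-fold and 2.43-fold lower in libraries 3, 7 and 8. Gins4 had the flattest course of the role, with 1338, 1173 and 1632 and 795, 1136 and 1463 in KDEL and SUN1L cells on 1 kPa and 1031, 1358 and 1999.8 and 911, 1326 and 1973 on 308 kPa. The signal of Gins4 was 1159, 1242 and 1602 with Y27, 1242 and 1487 with blebbistatin and 1690.2 with the empty vector, and it was 1.62-fold, 1.77-fold and 1.6-fold lower in libraries 3, 7 and 8.

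PCNA is the sliding clamp that holds polymerases on DNA, and the RFC complex loads it. Pcna had 10995, 10276 and 12260.5 in KDEL and 2926, 9244 and 10654 in SUN1L cells on 1 kPa, and 3845, 8934 and 12528 in KDEL and 3422, 9849 and 11758 in SUN1L cells on 308 kPa. Its signal was 10646, 10517 and 12437 with Y27, 9839 and 10949 with blebbistatin and 14007 in the empty vector library. The clamp was 3.39-fold, 3.14-fold and 2.75-fold lower in libraries 3, 7 and 8. Rfc1, the large subunit of the loader, had the smallest range of all 53 members, 1.01 on the log2 scale. Its signal was 4603, 4228 and 4404 in KDEL and 2747, 3792 and 4117 in SUN1L cells on 1 kPa, 3214, 4431 and 4965 and 3070.0, 4348 and 4529 on 308 kPa, 4771, 3857 and 4885 with Y27, 4548 and 4743 with blebbistatin and 5524 with the empty vector. Even so, Rfc1 was lowest in libraries 3, 7 and 8, by 1.44-fold, 1.45-fold and 1.46-fold. Rfc3 had 1211, 1101 and 1338 and 476, 1083 and 1313 in KDEL and SUN1L cells on 1 kPa, 543, 1101 and 1645 and 494, 1224 and 1539.6 on 308 kPa, 1034, 1060.3 and 1451 with Y27, 1067 and 1285 with blebbistatin and 1561 with the empty vector. The small subunits were lower by similar folds: 2.5-fold, 2.78-fold and 2.48-fold for Rfc3, 2.42-fold, 3.22-fold and 3.06-fold for Rfc5, 1.95-fold, 2.88-fold and 1.92-fold for Rfc2 and 2.16-fold, 2.09-fold and 1.69-fold for Rfc4. Clamp and loader had the smallest median drop of the 9 roles, 2.29-fold, 2.83-fold and 2.18-fold in libraries 3, 7 and 8.

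Polymerase alpha and primase start each strand, polymerase epsilon extends the leading strand and polymerase delta the lagging strand. Pola1, the catalytic subunit of polymerase alpha, had 2551, 2218 and 2073 in KDEL and 582, 1703 and 1925 in SUN1L cells on 1 kPa. On 308 kPa Pola1 had 604, 2137 and 2468 in KDEL, 625, 2229 and 1775 in SUN1L, 2447, 2037 and 2554 with Y27, 2406 and 2813 with blebbistatin and 2809 in the empty vector library. Its 3 SUN1L libraries on 1 kPa lay below all KDEL libraries there. Pola2, the accessory subunit, had 2228, 1990.1 and 2202 and 815, 1915 and 2339.7 in KDEL and SUN1L cells on 1 kPa, 614, 1916 and 2739 and 833, 2143 and 2496 on 308 kPa, 1991, 2397 and 2430.2 with Y27, 1925 and 2209.5 with blebbistatin and 2591 with the empty vector. The 2 subunits were lower by 3.11-fold, 3.18-fold and 3.8-fold and by 2.59-fold, 2.77-fold and 3.73-fold in libraries 3, 7 and 8. Prim1, the catalytic primase subunit, had 2151, 1888 and 2314 and 358, 1645 and 2016 on 1 kPa, 596, 1848 and 2664 and 497, 2053 and 2574 on 308 kPa in KDEL and SUN1L cells, 1898, 2203 and 2391 with Y27, 1786 and 2316 with blebbistatin and 2443 with the empty vector. Prim1 was 5.08-fold, 4.62-fold and 3.72-fold lower and its partner Prim2 2.42-fold, 3.16-fold and 2.54-fold.

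Pole, the catalytic subunit of polymerase epsilon, had 2930.2, 2391 and 2591 in KDEL and 517, 2079 and 2518 in SUN1L cells on 1 kPa. Its 308 kPa values were 701, 2403 and 3170.2 in KDEL, 649, 2698 and 2494 in SUN1L, 2704, 2769 and 2926 with Y27, 2689 and 3145 with blebbistatin and 3576 with the empty vector. Pole was 4.42-fold, 3.99-fold and 3.94-fold lower in libraries 3, 7 and 8, and its partner Pole2 2.14-fold, 2.34-fold and 2.86-fold. Pold2, a subunit of polymerase delta, had 2407, 1927 and 2436 in KDEL and 1139, 1569 and 2432 in SUN1L cells on 1 kPa, 1109, 1531 and 2626 and 933, 1493 and 2574 on 308 kPa, 2250.4, 2438 and 2815 with Y27, 2046 and 2224 with blebbistatin and 3281 with the empty vector. Here library 15 of the SUN1L cells on 1 kPa and libraries 19 and 20 on 308 kPa were also on the low side. Within polymerase delta the catalytic Pold1 was 3.44-fold, 3.42-fold and 3.4-fold lower in libraries 3, 7 and 8, against 1.72-fold, 2.1-fold and 1.81-fold for Pold2 and 1.73-fold, 1.73-fold and 1.95-fold for Pold3.

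Replication protein A covers single-stranded DNA, and FEN1 and DNA ligase I join the fragments of the lagging strand. Rpa1, its large subunit, had 12365, 11523 and 11195 in KDEL and 4319.5, 10365 and 9491 in SUN1L cells on 1 kPa, 5480.1, 11322 and 13616 and 5043, 12005 and 10949 on 308 kPa, 10606, 11674 and 11313 with Y27, 10643 and 13946 with blebbistatin and 14971 with the empty vector. The 3 drops of Rpa1 were nearly the same, 2.3-fold, 2.27-fold and 2.27-fold. Rpa2 had 1007, 842 and 1155 and 229.7, 847 and 973 in KDEL and SUN1L cells on 1 kPa, 337, 794 and 1406 and 242, 841 and 1366 on 308 kPa, 969.6, 897 and 1159 with Y27, 898 and 949.8 with blebbistatin and 1310.5 with the empty vector, and was 3.94-fold, 4.42-fold and 3.13-fold lower in libraries 3, 7 and 8. Fen1, the flap nuclease, had 1304, 1131 and 1396 and 431, 1029 and 1286 on 1 kPa, 381, 1033 and 1631 and 363, 1151 and 1454 on 308 kPa, 1081, 1131 and 1279.6 with Y27, 956 and 1183 with blebbistatin and 1387 with the empty vector. Lig1, the ligase, differed more than its partners in the pathway. It had 3615, 3246 and 3713 in KDEL and 588, 2642 and 3570.2 in SUN1L cells on 1 kPa, 647, 2912 and 4593 and 615, 3147 and 4245 on 308 kPa, 3154, 3966 and 4196 with Y27, 2888 and 3733 with blebbistatin and 4817 with the empty vector. Lig1 was 5.22-fold, 5.93-fold and 5.64-fold lower in libraries 3, 7 and 8, Exo1, an exonuclease of repair and replication, 5.03-fold, 5-fold and 4.6-fold, and Fen1 2.67-fold, 3.56-fold and 3.4-fold.

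**Figure D3:**
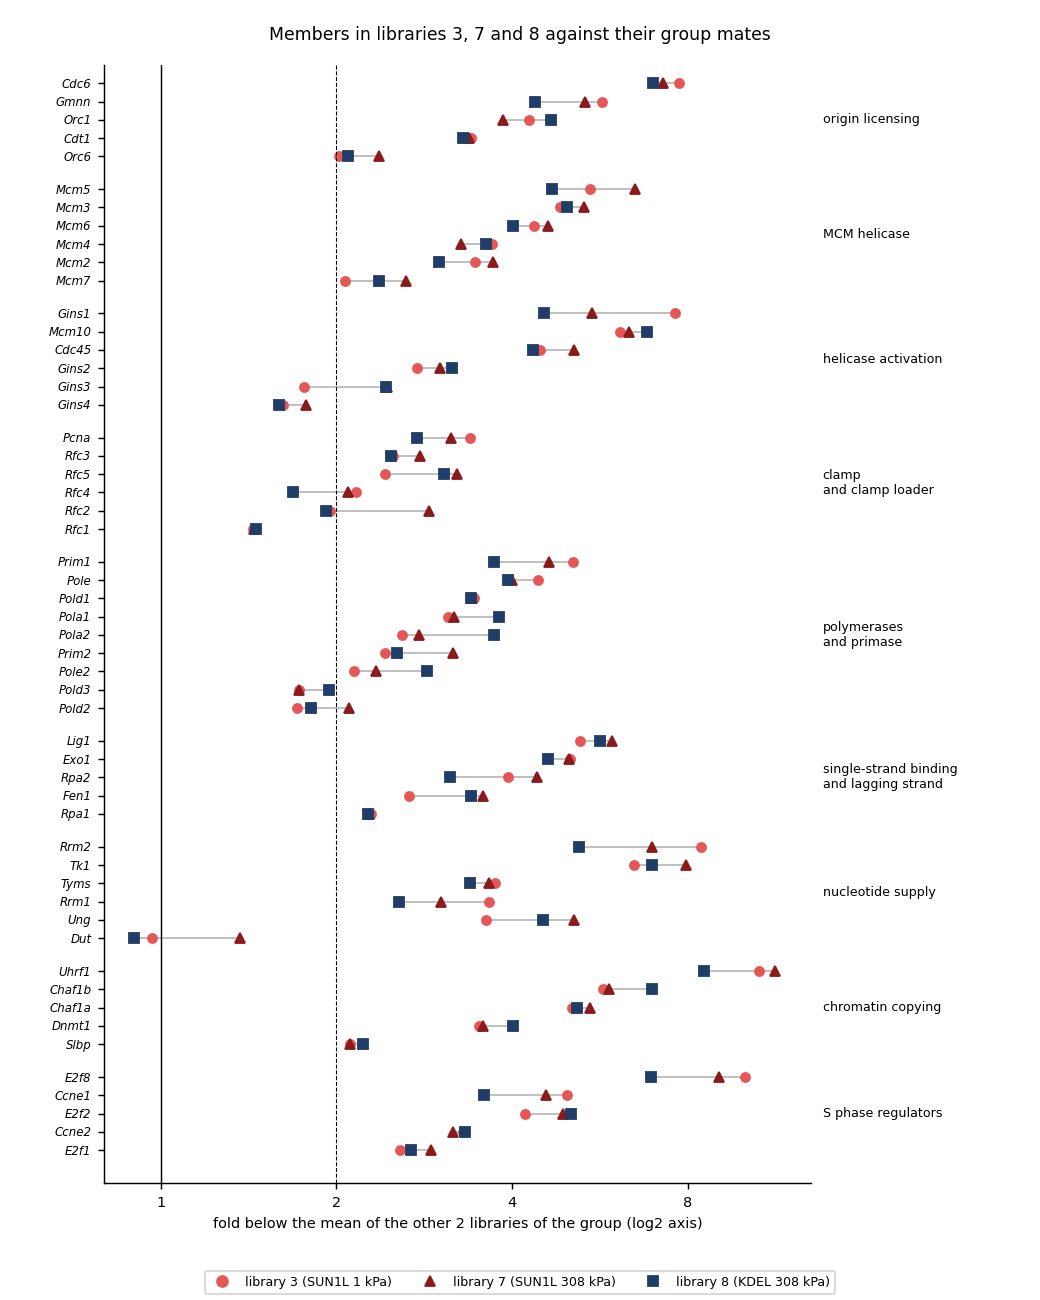
For each member, grouped by role, the 3 symbols give how many-fold library 3 (circle), library 7 (triangle) and library 8 (square) lay below the mean of the other 2 libraries of their own group, on a log2 axis; the solid line marks no difference and the dashed line 2-fold. Uhrf1, E2f8, Cdc6, Tk1 and Rrm2 lie far to the right, Rfc1 and Gins4 under 2-fold, and Dut around 1.

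Nucleotide supply held members that differed much in libraries 3, 7 and 8, Rrm2 and Tk1, and the member that differed least there, Dut. Rrm1 and Rrm2 form ribonucleotide reductase, the enzyme that makes deoxynucleotides, and Rrm2 is its S phase subunit. Rrm1 had 9603, 7766 and 8943 in KDEL and 1859, 6514 and 7086 in SUN1L cells on 1 kPa, 3429, 7667 and 10075 and 2558, 8116 and 7367 on 308 kPa, 9753, 8769.7 and 8633 with Y27, 9267 and 10276 with blebbistatin and 10660.2 with the empty vector. The values of Rrm2 were 8833, 8602 and 9634 in KDEL and 875, 6981 and 7781 in SUN1L cells on 1 kPa, 1754, 7817 and 10637 and 1139, 7831 and 7981 on 308 kPa, 7107, 8639.8 and 8436 with Y27, 6943 and 10839 with blebbistatin and 10682 with the empty vector. Rrm2 was 8.41-fold, 6.93-fold and 5.2-fold lower in libraries 3, 7 and 8 and Rrm1 3.65-fold, 3.02-fold and 2.56-fold. For both genes the SUN1L libraries on 1 kPa lay below every KDEL library on 1 kPa.

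Tyms and Tk1 make thymidylate by synthesis and by salvage. Tyms had 1687, 1603 and 2143 in KDEL and 405, 1347 and 1703 in SUN1L cells on 1 kPa, 591, 1657 and 2432 and 539, 1747 and 2212 on 308 kPa, 1453, 1854 and 2067 with Y27, 1528 and 2118 with blebbistatin and 2340.2 with the empty vector. Tk1 had 2202, 1782 and 2437 in KDEL and 271, 1367 and 2249 in SUN1L cells on 1 kPa, 291, 1406 and 2912 and 251, 1554 and 2567 on 308 kPa, 1646, 2123 and 2427 with Y27, 1592 and 2132 with blebbistatin and 3128 with the empty vector. Tk1 was 6.46-fold, 7.93-fold and 6.94-fold lower in libraries 3, 7 and 8 and Tyms 3.73-fold, 3.64-fold and 3.39-fold. Ung and Dut keep uracil out of DNA, the first by excising it and the second by hydrolysing dUTP, and they behaved unalike. Ung had 617, 387 and 489 and 127, 382 and 559 on 1 kPa, 99.7, 357 and 577 and 101, 393 and 687 on 308 kPa in KDEL and SUN1L cells, 500.1, 455 and 521 with Y27, 443 and 401 with blebbistatin and 623 with the empty vector, and was 3.61-fold, 5.09-fold and 4.51-fold lower in libraries 3, 7 and 8. Dut had 2310.0, 1630.1 and 2513 and 1909.6, 1745 and 1958 in KDEL and SUN1L cells on 1 kPa, 2525, 1686 and 3073 and 1709, 1856 and 2932 on 308 kPa, 2685, 2575 and 3289.7 with Y27, 2187 and 2177 with blebbistatin and 3130.0 with the empty vector. Library 16 of the KDEL cells on 1 kPa was its lowest, and libraries 3 and 8 lay slightly above the mean of their group mates.

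Chromatin copying, which restores DNA methylation and nucleosomes behind the fork, had the largest median drop of the 9 roles, 5.07-fold, 5.44-fold and 5.17-fold in libraries 3, 7 and 8. Uhrf1 recognizes hemimethylated DNA and recruits the methyltransferase DNMT1, and it had the widest range of all members, 3.82 on the log2 scale. On 1 kPa Uhrf1 had 7071, 5639.6 and 7351 in KDEL and 677, 6063 and 8522 in SUN1L cells, and on 308 kPa 757, 5019 and 8311 and 674, 6532 and 8866. Its signal was 5809.9, 6200.5 and 7030.1 with Y27, 5207 and 6745 with blebbistatin and 9525 with the empty vector. Uhrf1 was 10.6-fold, 11.3-fold and 8.53-fold lower in libraries 3, 7 and 8. Dnmt1 had 7873, 6393 and 7221 and 1859.9, 5923 and 7167 in KDEL and SUN1L cells on 1 kPa, 1882, 6361 and 8988 and 1992, 6807 and 7426 on 308 kPa, 6608, 6679 and 7382 with Y27, 6637 and 8063 with blebbistatin and 9679 with the empty vector. The methyltransferase thus shared the low libraries with its recruiter but at 3.5-fold, 3.57-fold and 4.02-fold lower.

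Chaf1a and Chaf1b encode subunits of the histone chaperone CAF-1. Chaf1a had 3683, 2927 and 3598 and 780.4, 3542 and 4430.1 in KDEL and SUN1L cells on 1 kPa, 695, 2823 and 4577 and 789, 3613 and 5103 on 308 kPa, 3006, 3244 and 3795 with Y27, 2864 and 3732 with blebbistatin and 4322 with the empty vector. Chaf1b had 1902, 1708 and 2081 and 297, 1593 and 1823 on 1 kPa, 294, 1752 and 2388 and 330.0, 1831 and 2058 on 308 kPa, 1745, 2054 and 2153 with Y27, 1612 and 2091 with blebbistatin and 2168 with the empty vector. Both subunits were lower by close folds, 5.07-fold, 5.44-fold and 5.17-fold for Chaf1a and 5.72-fold, 5.87-fold and 6.93-fold for Chaf1b. Slbp, which binds the stem-loop of histone messages, had 2894, 2825 and 3211 and 1233, 2606 and 2606 in KDEL and SUN1L cells on 1 kPa, 1305, 2623 and 3209.7 and 1331, 2697 and 2928 on 308 kPa, 3026, 2784 and 3249 with Y27, 2611 and 3099 with blebbistatin and 3714 with the empty vector. It was 2.11-fold, 2.11-fold and 2.22-fold lower in libraries 3, 7 and 8.

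The regulators of S phase entry were low in the same libraries. Ccne1 and Ccne2 encode E cyclins, which activate CDK2 at the G1 to S transition. Ccne1 had 2179, 1972 and 2483 in KDEL and 428, 2043 and 2206 in SUN1L cells on 1 kPa, 672, 1964 and 2942 and 507, 2171 and 2477 on 308 kPa, 1695, 2288 and 2106 with Y27, 1779 and 2387 with blebbistatin and 2358 with the empty vector. Ccne2 had 1064, 1077 and 1021 in KDEL and 264, 966 and 785 in SUN1L cells on 1 kPa, 292, 960.1 and 984 and 268, 893 and 806 on 308 kPa, 1009.7, 1049.9 and 1065 with Y27, 817 and 1079.9 with blebbistatin and 1199 with the empty vector. Ccne2 was the one member whose groups did not overlap in more than 1 comparison, with SUN1L below KDEL cells on 1 kPa, KDEL cells on 308 kPa below those on 1 kPa, and Y27 above untreated KDEL cells. In libraries 3, 7 and 8 Ccne1 was 4.96-fold, 4.56-fold and 3.57-fold lower and Ccne2 3.29-fold, 3.16-fold and 3.31-fold.

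E2F1 is an activator and E2F8 a repressor of the E2F program. E2f1 had 2973, 2881 and 3201 and 1163, 2787 and 3204 in KDEL and SUN1L cells on 1 kPa, 1147, 2754 and 3455 and 1082, 2777 and 3569.9 on 308 kPa, 2376, 2868 and 2868 with Y27, 2694 and 2909 with blebbistatin and 3131 with the empty vector. E2f8 had 1053, 809.9 and 915 and 79.4, 726 and 889.9 on 1 kPa, 130.2, 809 and 1014 and 86.7, 855 and 735 on 308 kPa, 928, 903 and 957 with Y27, 842 and 1019 with blebbistatin and 1112 with the empty vector. The repressor was 10-fold, 9.05-fold and 6.91-fold lower in libraries 3, 7 and 8 and the activator 2.57-fold, 2.91-fold and 2.69-fold. E2f2, another activator, was 4.2-fold, 4.88-fold and 5.04-fold lower.

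Across the 53 members, 45 were at least 2-fold lower in all 3 of libraries 3, 7 and 8, and 4 in none of them (Pold3, Gins4, Rfc1 and Dut). Of all tested genes, 7.86%, 8.46% and 9.63% were at least 2-fold lower in each of these libraries taken singly. Their share in all 3 was not counted and cannot exceed the smallest of these. The deviations of the members in the 3 libraries ran in parallel across genes, with a Pearson r of 0.96 between libraries 3 and 7, 0.92 between 3 and 8 and 0.94 between 7 and 8 (n = 53 genes). These genes are not independent, the libraries share the normalization, and the values are a description. The deviations of members with and without an E2F word in the promoter overlapped. The 17 members with a word were 3.5-fold, 3.57-fold and 4.01-fold lower at the median in libraries 3, 7 and 8, and the 26 matched members without one 3.53-fold, 3.6-fold and 3.26-fold.

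Turning to the groups, the first question was whether LINC disruption by SUN1L moved these genes on the soft gel. On 1 kPa all 53 members had a negative fitted log2 difference between SUN1L and KDEL cells, with a median of −0.75 against −0.009 for all tested genes, but none was called. A call needed a Benjamini-Hochberg adjusted p under 0.05 in limma and at least a 2-fold difference, which 14 of 16021 genes met (0.0874%). No member had an unadjusted p under 0.05 either, against 4.54% of all tested genes, and the smallest of the members was 0.12. The most negative differences were those of Rrm2, −1.31 (SE 0.98, limma adjusted p = 0.93), and E2f8, −1.3 (SE 1.11, limma adjusted p = 0.93). The least negative were those of Gins4, −0.32 (SE 0.33, limma adjusted p = 0.93), and Dut, −0.18 (SE 0.26, limma adjusted p = 0.93). With a median standard error of 0.65 over the members, a 2-fold difference would lie within 2 standard errors of 0 and was not detectable for most of them. At least 2-fold lower, whatever the p, were 8 members, against 2.08% of all tested genes.

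For 8 of the 53 members the SUN1L and KDEL libraries on 1 kPa did not overlap and SUN1L was lower, against 7.86% of all tested genes in that direction. None was free of overlap and higher, against 6.65%. They were Orc1, Rfc1, Pola1, Rpa1, Rrm1, Rrm2, Ccne2 and Slbp. Library 3 carried most of the difference. Within the first run of serial numbers library 3 was 4.23-fold below library 4 at the median member, whereas library 15 was 1.09-fold below library 16 and library 27 was 1.12-fold below library 28. Both of these later pairs had 45 members lower and 8 higher. Without libraries 3, 7 and 8 the median difference was −0.17, 50 members were negative, none was called, and Ccne2 and Rrm1 had an unadjusted p under 0.05 (3.77% of the members against 4.92% of all tested genes). That alternative was chosen after the libraries had been seen.

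On the stiff gel of 308 kPa, SUN1L and KDEL cells each had 1 low library, and the members centred near 0. The median log2 difference was −0.06 against −0.03 for all tested genes, with 42 members negative and 11 positive. None of the 53 was called, against 10 genes overall (0.0624%), none had an unadjusted p under 0.05 in limma, against 2.53% of all tested genes, and the groups of no member were free of overlap, against 1.95% of all tested genes higher and 2.33% lower. The extremes were Rrm2 at −0.34 (SE 0.98) and E2f8 at −0.32 (SE 1.11) on one side and Chaf1a at 0.23 (SE 0.86) and Pola2 at 0.16 (SE 0.58) on the other, with limma adjusted p-values of 1. Library 7 was 1.1-fold below library 8 at the median member, library 19 was 1.08-fold above library 20, and library 31 was 1.11-fold below library 32.

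Rigidity itself was compared next. In KDEL cells the median member differed by −0.56 between 308 kPa and 1 kPa, against −0.01 for all tested genes, with 51 members negative and 2 positive. No member was called, nor was any of the 16021 genes (0%), and none of the members had an unadjusted p under 0.05 in limma, against 1.37% of all tested genes. Uhrf1 had −1.07 (SE 1.19) and Tk1 −1.0 (SE 1.04), while Dut had 0.16 (SE 0.26) and Gins4 0.04 (SE 0.33), all with limma adjusted p-values of 1. Only Ccne2 was free of overlap and lower on 308 kPa, against 2.65% of all tested genes, and none was higher, against 2.13%. Uhrf1 and Tk1 were the 2 members at least 2-fold lower whatever the p, against 0.961% of all tested genes. Library 8 was 3.6-fold below library 4 at the median member, library 20 was 1.04-fold below library 16, and library 32 was 1.15-fold above library 28. Without libraries 3, 7 and 8 the median turned to 0.07, with 39 members positive.

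In SUN1L cells, in which both rigidities had a low library, the median difference between 308 kPa and 1 kPa was 0.17, with 46 members positive and 7 negative. Again no member and no gene overall was called (0%), and no member had an unadjusted p under 0.05 in limma, against 1.93% of all tested genes. Gins1 had 0.45 (SE 0.93) and Gmnn 0.41 (SE 0.87), and Gins2 −0.11 (SE 0.59) and Pold2 −0.09 (SE 0.41), with limma adjusted p-values of 1. Each run gave a similar small difference, 1.06-fold for library 7 over library 3, 1.14-fold for library 19 over library 15 and 1.14-fold for library 31 over library 27. The groups of no member were free of overlap, against 1.69% of all tested genes higher and 3.08% lower, and without libraries 3, 7 and 8 the median was 0.19.

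The interaction asks whether SUN1L changed the members' dependence on rigidity. All 53 members had a positive interaction term, with a median of 0.71 against −0.004 for all tested genes, and none passed a Bonferroni-corrected p of 0.05, which no gene of the 16021 passed (0%). At an unadjusted p under 0.05 in limma there was no member, against 0.905% of all tested genes. Uhrf1 had 1.12 (SE 1.69) and Tk1 1.09 (SE 1.47), and Dut 0.01 (SE 0.37) and Gins4 0.24 (SE 0.46), with limma adjusted p-values of 1. At least 2-fold, whatever the p, were the terms of 6 members, against 2.53% of all tested genes. KDEL cells on 1 kPa were the one group of the 4 without a low library. Without libraries 3, 7 and 8 the median term was 0.14.

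**Figure D4:**
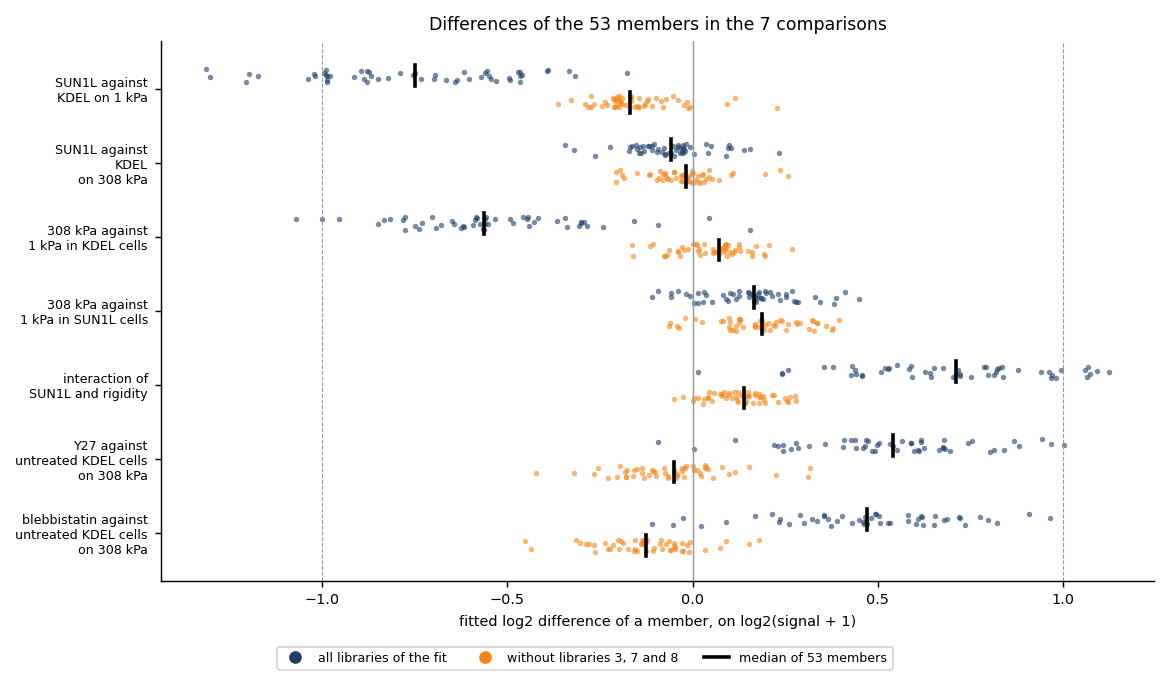
Each dot is the fitted log2 difference of 1 of the 53 members in 1 of the 7 comparisons, on log2(signal + 1), with all libraries of the fit (blue) and without libraries 3, 7 and 8 (orange); black bars are medians, dashed lines 2-fold. The medians with all libraries run from −0.75 to 0.71, and without the 3 libraries all 7 lie between −0.17 and 0.19 and no member reaches 2-fold.

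Myosin activity was the last question, with untreated KDEL cells on 308 kPa, libraries 8, 20 and 32, as the controls of both inhibitors. With Y27, 52 members had a positive difference, with a median of 0.54 against 0.006 for all tested genes. None was called, and no gene overall was (0%), and none had an unadjusted p under 0.05 in limma, against 5.8% of all tested genes. Uhrf1 had 1.0 (SE 0.82, limma adjusted p = 0.85) and E2f8 0.97 (SE 0.73, limma adjusted p = 0.85), whereas Gins4 had −0.09 (SE 0.26, limma adjusted p = 0.95) and Gins3 0.005 (SE 0.4, limma adjusted p = 1). Ccne2 alone was free of overlap and higher, against 4.95% of all tested genes, and none was lower, against 3.62%. Uhrf1 was the 1 member at least 2-fold higher whatever the p, against 1.77% of all tested genes. Library 12 was 3.11-fold above library 8 at the median member, library 24 was 1.13-fold above library 20, and library 36 was 1.13-fold below library 32. Without library 8 the median turned to −0.05.

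With blebbistatin, for which 2 libraries were used, 50 members had a positive difference, with a median of 0.47 against 0 for all tested genes. No member and no gene overall was called (0%), and no member had an unadjusted p under 0.05 in limma, against 3.04% of all tested genes. E2f8 had 0.96 (SE 0.82) and Uhrf1 0.91 (SE 0.92), and Dut −0.11 (SE 0.25) and Gins4 −0.05 (SE 0.29), with limma adjusted p-values of 1. The groups of all members overlapped, against 7.2% of all tested genes free of overlap and higher and 5.85% lower. Library 10 was 2.79-fold above library 8 at the median member and library 22 was 1.23-fold above library 20, and without library 8 the median difference was −0.13. Because both inhibitors were set against the same controls, their differences are not independent of each other.

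Other genes of replication, a list of 61 that holds no member, were read in the same way, and 59 of them passed the filter. At least 2-fold below their group mates were 23 in library 3 (39.0%), 26 in library 7 (44.1%) and 25 in library 8 (42.4%). The shares of all tested genes were 7.86%, 8.46% and 9.63%. Clspn, which relays the replication checkpoint, was 8.17-fold, 6.94-fold and 6.46-fold lower and the repressor E2f7 5.24-fold, 4.6-fold and 5.52-fold. Cdc7 and Dbf4, the kinase that fires origins, were lower as well, by 2.79-fold, 3.42-fold and 3.98-fold for Cdc7 and 3.28-fold, 2.7-fold and 3.06-fold for Dbf4. In contrast to Orc1 and Orc6, the origin complex genes Orc2, Orc3, Orc4 and Orc5 were nowhere 2-fold lower in the 3 libraries, with Orc5 at most 1.28-fold lower and Orc3 higher in each. Rb1, the retinoblastoma protein that holds E2F in check, and the CDK inhibitor Cdkn1a were higher in all 3. Rb1 was also higher than its group mates in libraries 4, 10, 12, 15, 16, 19 and 20. It was lower in libraries 22, 24, 27, 28, 31, 32 and 36. Genes of the same kinds did not all rise. Rbl2, a relative of Rb1, was higher in all 3, but Rbl1 was 3.24-fold, 2.64-fold and 2.98-fold lower. The rise of Rbl2 was not particular to these libraries. It was 0.22, 0.57 and 0.33 on the log2 scale in libraries 3, 7 and 8 and 0.57 in library 12. Rbl2 was also higher in the same further libraries as Rb1. Among the CDK inhibitors Cdkn2c was 3.1-fold, 2.92-fold and 2.22-fold lower, and Cdkn1b deviated by −0.20, 0.13 and −0.02 on the log2 scale. In the 7 comparisons none of the 59 genes was called, and their median was −0.31 for SUN1L against KDEL cells on 1 kPa, −0.24 for 308 kPa against 1 kPa in KDEL cells and 0.26 for Y27, in each case nearer to 0 than the members.

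Genes of mitosis, 21 in all, act after S phase and differed more than the members in the same libraries. Of all tested genes, 7.86%, 8.46% and 9.63% were at least 2-fold lower in libraries 3, 7 and 8. Each of the 21 was over 4-fold lower in libraries 3, 7 and 8, with medians of 8.28-fold, 8.15-fold and 6.91-fold, as in Mki67 (11.7-fold, 12.4-fold and 10.3-fold) and Nusap1 (6.67-fold, 6.14-fold and 4.6-fold). Their promoters held an E2F word in 1 of 17 matched genes (5.88%) and the letters CCAAT, a box bound by NF-Y, on either strand in 15 (88.2%), against 26 of 43 members (60.5%) and 42.5% of the tested genes. None of the mitosis genes was called in the 7 comparisons.

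**Figure D5:**
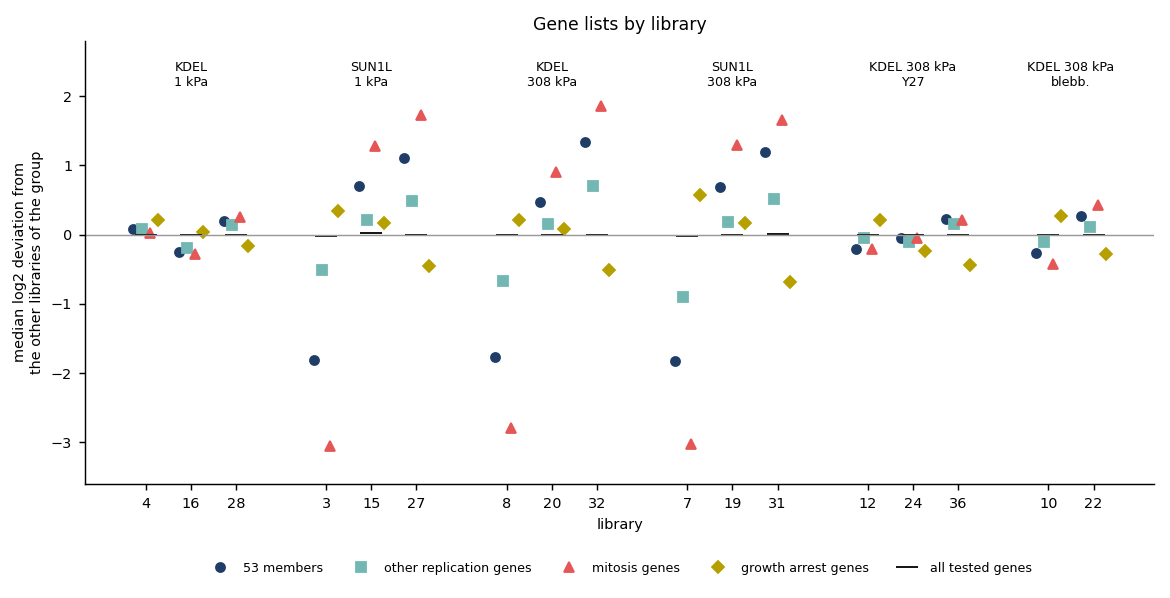
For each library except the empty vector library, the symbols give the median log2 deviation from the other libraries of its group for the 53 members (circles), the other replication genes (squares), the mitosis genes (triangles), the growth arrest genes (diamonds) and all tested genes (bars). In libraries 3, 8 and 7 the members stand at −1.81, −1.77 and −1.83 and the mitosis genes lower still, while all tested genes stay at 0; the library mates are raised because the low library is in their reference.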

How the data were processed

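Messenger RNA of 18 NIH 3T3 libraries was sequenced, and the deposited table holds 1 normalized signal value per gene and library, made by the authors with TMM scaling in AvadisNGS on a linear scale with a lowest value of 1. Per the study's methods, reads were checked with FastQC, aligned with TopHat v2.0 and handled with SAMtools, and filtered on quality. The methods name mm9, whereas the gene positions in the table are those of GRCm38. Whole reads could not be recovered, so no count test was run. Signals of different genes are not scaled per length and were not compared.

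A gene was tested if 3 or more of the 18 libraries exceeded the table's minimum, which left 16021 of 22019. Differences were fitted to log2(signal + 1), a scale that understates changes of low genes, with limma 3.58.1 in R 4.3.3 (trended prior, two-sided), over 12 libraries for SUN1L and rigidity and 8 libraries for the inhibitors. P-values were adjusted by Benjamini-Hochberg over all tested genes. A call needed an adjusted p under 0.05 and 2-fold, or for the interaction a Bonferroni-corrected p under 0.05. An exact test of 3 against 3 libraries cannot go below 0.1. The fit was tested on simulated data.

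Values in every library are given for members set by role, for the 2 largest differences in each direction per comparison. The members with the 3 widest and 3 narrowest ranges are named, with folds only for Pold3. The members, gene lists, roles and motifs were chosen with earlier results of these data known. The empty vector library, numbered 34 in its title and 35 in the table, was left out of the main fits. Alternatives covered the filter, pseudocount, normalization, libraries fitted, prior, array weights, a term for the run of serial numbers, and each library left out. Promoter windows are RefSeq's.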

Additional observations from a re-analysis of the deposited data

Results flagged for a closer look

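The empty vector library, which entered no main comparison, had a higher signal than each of the 3 untreated KDEL libraries on 308 kPa for 28 of the 53 members (52.8%), against 21.5% of all tested genes. Of the untreated libraries, library 8 was among the low ones for 52 of the 53 members, against 12.9% of all tested genes. The share of all tested genes is therefore not a like reference. The signal of the empty vector library lies in data outside the comparisons, in 1 library without a replicate. That library also had the highest signal summed over all genes, 34880352. Its members were also above each of the 5 inhibitor libraries for 47 of 53 genes (88.7%), against 22.6% of all tested genes. At the median the members lay 0.37 above the mean of the 5 inhibitor libraries on the log2 scale (1.29-fold). The labels of this library contradict each other on the inhibitor, and the difference was not tested.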

How the results depend on the processing

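In 162 fits of the 7 comparisons, main and alternative, no member was called, and the smallest limma adjusted p of a member was 0.23. The median log2 difference of the members moved with single libraries. Leaving out each library in turn gave −1.1 to −0.17 for SUN1L against KDEL cells on 1 kPa (highest without library 3), −0.65 (without library 8) to 0.57 (without library 7) on 308 kPa, and −1.0 to 0.07 for rigidity in KDEL cells (highest without library 8). It gave −0.44 (without library 3) to 0.75 (without library 7) for rigidity in SUN1L cells, 0.10 (without library 8) to 1.3 (without library 7) for the interaction, −0.05 to 0.97 for Y27 and −0.13 to 0.90 for blebbistatin (both lowest without library 8). Array weights brought the first median to −0.36 and the interaction to 0.43. No paired analysis was possible by replicate number, because the labels carry no replicate numbers that would match libraries between groups. Libraries could be matched by the run of serial numbers instead, a match that the main fits did not use. A fit blocked on the run of serial numbers, which the labels do not call a replicate, raised the members at an unadjusted p under 0.05 for SUN1L on 1 kPa to 14 (26.4%, against 14.1% of all tested genes). Leaving out libraries 3, 7 and 8 together was chosen after seeing the data.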

Other observations

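Genes of growth arrest, 12 of 13 of which passed the filter, lay above the group mates at the median in libraries 3, 7 and 8, by 0.34, 0.58 and 0.21 on the log2 scale. The same was seen in the other libraries of the first run of serial numbers, by 0.21 in library 4, 0.21 in library 12 and 0.27 in library 10. It was not particular to that run, with 0.17, 0.04, 0.16 and 0.08 in libraries 15, 16, 19 and 20. Libraries 22 and 24 had −0.27 and −0.24. Libraries 27, 28, 31, 32 and 36 of the third run had −0.45, −0.17, −0.68, −0.51 and −0.44. These 5 are part of the reference of their group mates in the first run. In libraries 4, 12 and 10 the median replication member deviated by 0.07, −0.21 and −0.26. No member was 2-fold lower there, against 3.76%, 4.4% and 3.57% of all tested genes. Below their group mates were 4 of the 12 growth arrest genes in library 3, 1 in library 7 and 4 in library 8.

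Gas1, a growth arrest gene, deviated by 1.247, 1.70 and 0.75 on the log2 scale in libraries 3, 7 and 8, and by 0.69, 1.64 and 1.91 in libraries 4, 12 and 10. Btg2, an antiproliferative gene, deviated by 1.08, 1.13 and 0.94 in libraries 3, 7 and 8, and by 0.60, 1.21 and 1.74 in libraries 4, 12 and 10. The CDK inhibitor Cdkn1a deviated by 0.79, 0.59 and 0.79 in libraries 3, 7 and 8, and by −0.04, −0.05 and 0.29 in libraries 4, 12 and 10. Cdkn2c, another CDK inhibitor, was 3.1-fold, 2.92-fold and 2.22-fold lower in libraries 3, 7 and 8. Gas6 was 2.44-fold lower in library 3 and higher than its group mates in library 7. It lay near the table's minimum, with equal deviations of −0.46 in libraries 19 and 31, so that its folds are unreliable. None of the 12 genes was called in the 7 comparisons. The choice of which to name was made with their values in view.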
